A study of Mus musculus with 2 samples.

Results

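The stathmins and growth cone proteins described here are 8 genes chosen by name: the stathmins Stmn1, Stmn2, Stmn3 and Stmn4, the growth-associated proteins Gap43 and Basp1, and the MARCKS family members Marcks and Marcksl1. They are 8 of the 55536 genes listed in the deposited tables and 8 of 22028 protein-coding genes. Polyadenylated RNA was sequenced from newborn B6NCrl mice (P0, day 0), using the whole forebrain. There were 2 libraries, pup 1 and pup 3, each made with 10 ng of RNA from 1 forebrain. They make 1 group with no treatment and no mutant, so no comparison between conditions exists and no test was made. The labels call the pups separate replicates but give both the same donor identifier, and sex was not collected.

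Stathmins bind pairs of tubulin subunits and make microtubules disassemble, and phosphorylation by several kinases releases the tubulin. Stmn1 is cytosolic and is found in dividing cells as well as neurons, while Stmn2, Stmn3 and Stmn4 are neuronal and are held on membranes by palmitate on cysteines near the start of the protein. Gap43, Basp1, Marcks and Marcksl1 are acidic proteins of the inner face of the plasma membrane that bind phosphoinositides or calmodulin, are phosphorylated by protein kinase C, and act on the actin beneath the membrane of growing axon tips.

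The start of each coding sequence is shown because it carries the codons for the lipid-anchored residues by which the 8 proteins differ. These are the first 90 coding bases of the leading transcript, the one with the highest mean level, taken from the transcripts of GENCODE release M21. Cysteine codons are in capitals in the stathmins and Gap43, and the glycine codon after the start codon is in capitals in the others.
Stmn1: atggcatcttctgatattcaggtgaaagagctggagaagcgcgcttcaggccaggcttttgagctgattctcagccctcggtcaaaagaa
Stmn2: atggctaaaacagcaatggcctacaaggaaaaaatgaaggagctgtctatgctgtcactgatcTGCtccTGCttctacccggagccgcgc
Stmn3: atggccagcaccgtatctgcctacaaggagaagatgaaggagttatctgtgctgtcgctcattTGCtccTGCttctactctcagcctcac
Stmn4: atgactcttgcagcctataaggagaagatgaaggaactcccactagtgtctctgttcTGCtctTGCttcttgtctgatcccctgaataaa
Gap43: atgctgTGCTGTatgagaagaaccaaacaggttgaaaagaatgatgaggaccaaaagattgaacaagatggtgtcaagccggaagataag
Basp1: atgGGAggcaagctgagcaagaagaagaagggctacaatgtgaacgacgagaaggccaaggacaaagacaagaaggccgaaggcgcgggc
Marcks: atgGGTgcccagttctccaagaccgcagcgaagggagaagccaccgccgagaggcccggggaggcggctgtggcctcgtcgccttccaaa
Marcksl1: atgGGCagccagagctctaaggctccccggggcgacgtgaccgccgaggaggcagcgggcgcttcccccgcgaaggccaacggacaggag
Counted from the start codon, the paired cysteine codons stand at positions 22 and 24 in Stmn2 and Stmn3, at 20 and 22 in Stmn4, and at 3 and 4 in Gap43. Stmn1 had 0 cysteine codons in this stretch. Basp1, Marcks and Marcksl1 have glycine at codon 2, the residue to which myristate is attached. Over the aligned coding sequence the stathmins were 69.1% (Stmn1 and Stmn3) to 73.6% (Stmn2 and Stmn3) identical to each other. Marcks and Marcksl1 were 67.7% identical, and Gap43 and Basp1 62.1% over 596 aligned bases. Gaps were left out of all these shares, and no level for unrelated sequences was computed. The shares alone therefore do not show that 2 genes are related.

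In newborn forebrain all 8 genes were detected in both pups, over a range from 193 TPM (Marcks) to 6363 TPM (Stmn1). TPM is a read count divided by transcript length and scaled to a fixed total, so levels of different genes can be set beside each other. The mean over the 2 pups was 6363 ± 499 TPM for Stmn1 (SD, n = 2 pups, as for all errors below). Stmn1 was ranked 5 by mean TPM among protein-coding genes. In bulk tissue, fewer cells of a type and less RNA per cell cannot be told apart.

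Stmn1, the cytosolic stathmin (chromosome 4, 134468320 to 134473843, plus strand, mm10), was listed at 6010 TPM in pup 1 and at 6716 TPM in pup 3. Pup 3 was the higher one, and both values lay above every value of the other 7 genes. Its neighbours in the order of protein-coding genes were the mitochondrial gene mt-Atp8 above, at 11001 ± 2169 TPM, and the imprinted gene Nnat below, at 5438 ± 547 TPM. Stmn1 made up 64.0% of the summed stathmin TPM in pup 1 and 67.1% in pup 3.

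Stmn2, also known as SCG10 (chromosome 3, 8509360 to 8561606, plus strand), was listed at 1358 TPM in pup 1 and at 1165 TPM in pup 3, a mean of 1262 ± 137 TPM and rank 60. Stmn3, also known as SCLIP (chromosome 2, 181306459 to 181314500, minus strand), was at 1416 and 1555 TPM, a mean of 1486 ± 98.7 TPM and rank 43. Stmn4, also known as RB3 (chromosome 14, 66344296 to 66361680, plus strand), was at 608 and 574 TPM, a mean of 591 ± 24.1 TPM and rank 200. Of these 3 palmitoylated stathmins, Stmn3 was higher in pup 3 and the other two higher in pup 1, and the values of Stmn4 overlapped with neither of the others. The protein-coding neighbours of Stmn2 were Elob (1297 TPM) above and Gapdh (1254 TPM) below. Stmn3 stood between Nsg1 (1561 TPM) and Ptma (1471 TPM), and Stmn4 between Rps27a (594 TPM) and Fkbp1a (586 TPM). Summed, the 3 palmitoylated stathmins reached 3382 TPM in pup 1 and 3294 TPM in pup 3, below Stmn1 alone in either pup.

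Gap43, a substrate of protein kinase C and a binder of calmodulin (chromosome 16, 42248442 to 42340651, minus strand), was listed at 1613 TPM in pup 1 and at 1278 TPM in pup 3, a mean of 1446 ± 237 TPM and rank 46. Basp1, also known as CAP-23 (chromosome 15, 25363277 to 25413764, minus strand), was at 424 and 385 TPM, a mean of 405 ± 27.2 TPM and rank 336. Both were higher in pup 1, and their values did not overlap. Gap43 stood between Jpt1 (1468 TPM) and Nrep (1431 TPM), and Basp1 between Mrfap1 (408 TPM) and Cetn3 (404 TPM).

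Marcksl1, the smaller of the MARCKS proteins (chromosome 4, 129513581 to 129515985, plus strand), was listed at 1881 TPM in pup 1 and at 1827 TPM in pup 3, a mean of 1854 ± 37.6 TPM and rank 34. Marcks (chromosome 10, 37133375 to 37138920, minus strand) was at 202 and 185 TPM, a mean of 193 ± 12.1 TPM and rank 820. Marcksl1 was thus far above Marcks in both pups, and both genes were slightly higher in pup 1. The protein-coding neighbours of Marcksl1 were Hspa8 (1889 TPM) and Tubb5 (1774 TPM), and those of Marcks were Dnajc5 (194 TPM) and Rpl36a (193 TPM).

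**Figure D1:**
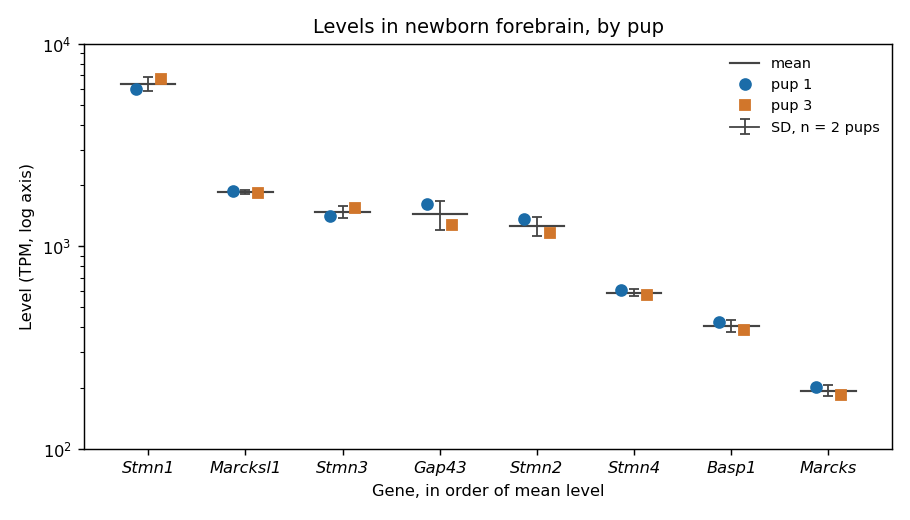
Level of each gene in TPM on a log axis, with a circle for pup 1, a square for pup 3, and a line and bar for the mean and SD over 2 pups. The genes run from Stmn1 at 6363 TPM to Marcks at 193 TPM, and Stmn3, Gap43 and Stmn2 lie close together between 1262 and 1486 TPM.

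From the highest to the lowest mean TPM the order was Stmn1, Marcksl1, Stmn3, Gap43, Stmn2, Stmn4, Basp1 and Marcks. Neighbours in this order did not overlap between pups except Stmn3 with Gap43 and Gap43 with Stmn2. The means of Stmn3 and Gap43 differed 1.03-fold, and those of Gap43 and Stmn2 1.15-fold. The order of these 3 genes differed between the pups, with Gap43 the highest in pup 1 and Stmn3 the highest in pup 3.

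Ratios of 2 genes within a library do not depend on the scaling between libraries, and 8 such pairs were computed, on TPM + 0.1. Stmn1 exceeded Stmn2 by 2.34 ± 0.27 on the log2 scale, a ratio of 4.42 in pup 1 and 5.77 in pup 3. Stmn3 exceeded Stmn4 by 1.33 ± 0.15 and Stmn2 exceeded Stmn4 by 1.09 ± 0.10. Among the palmitoylated stathmins, Stmn4 was therefore the lowest in both pups, by more than the spread of the ratio. The log2 ratio of Stmn2 to Stmn3 was -0.24 ± 0.25, no larger than its spread. Marcksl1 exceeded Marcks by 3.26 ± 0.06, a ratio of 9.31 in pup 1 and 9.88 in pup 3. This was the largest and the least variable of the 8 ratios. Gap43 exceeded Basp1 by 1.83 ± 0.14, Stmn1 exceeded Marcksl1 by 1.78 ± 0.14, and Gap43 exceeded Stmn2 by 0.19 ± 0.08.

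The order of the genes was different in reads than in TPM, because their transcripts differ in length. The leading transcript of Marcks is 4048 bases long, of which 927 are coding and 2733 lie in the 3′ UTR, while that of Stmn1 is 1060 bases with 447 coding. Stmn2 has the longest transcript of the stathmins, 2073 bases with a 3′ UTR of 1281 bases. By mean expected count, an estimate in which reads that fit several places are divided among them, the genes ran from Stmn1 (169786) over Marcksl1 (77456), Stmn2 (65390), Gap43 (52616), Stmn3 (42894), Marcks (21151) and Basp1 (19670) to Stmn4 (19584). Stmn2 thus had more reads than Stmn3 and Gap43 but a lower TPM, and Marcks, the lowest gene by TPM, had more reads than Basp1 and Stmn4. Summed over all features, pup 1 had 40964891 expected counts and pup 3 had 41230878. The 8 genes took 1.08% of these counts in pup 1 and 1.19% in pup 3. The 95% Wilson intervals, 1.082 to 1.088 and 1.192 to 1.198, cover counting error only, since reads without molecular identifiers are not independent molecules. Of all TPM they held 1.35% and 1.37%.

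**Figure D2:**
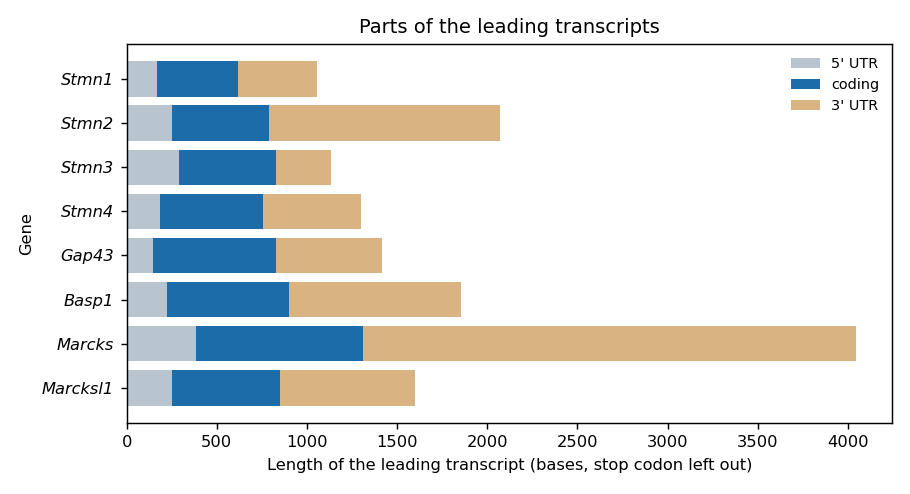
Lengths in bases of the 5′ UTR, coding sequence and 3′ UTR of each leading transcript. Marcks stands out by a 3′ UTR of 2733 bases, and the stathmin coding sequences lie between 447 and 567 bases.

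The effector domain of the MARCKS proteins, a run of lysines and phenylalanines, is the stretch that binds membrane lipids and calmodulin and holds the sites of protein kinase C. It is shown because Marcksl1 and Marcks, the highest and the lowest by TPM of the genes that are not stathmins, both encode it. In Marcks the window of 25 codons with the most lysine and phenylalanine codons spans codons 145 to 169. The stretch of Marcksl1 closest to it without gaps spans codons 86 to 110. Lysine codons are in capitals.
Marcks: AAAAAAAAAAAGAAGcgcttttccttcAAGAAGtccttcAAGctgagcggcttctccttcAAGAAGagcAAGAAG
Marcksl1: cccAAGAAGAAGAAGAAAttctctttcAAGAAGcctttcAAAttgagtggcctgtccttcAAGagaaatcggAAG
These windows shared 52 of 75 bases (69.3%). The Marcks window held 12 lysine and 5 phenylalanine codons, and the Marcksl1 window 10 and 4.

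Each gene was represented almost wholly by 1 transcript, except Stmn4. Stmn3, Marcks and Marcksl1 have 1 annotated transcript each. Stmn1-201 held 98.8% of Stmn1 TPM in pup 1 and 99.0% in pup 3, over 5 annotated transcripts. Gap43-201 held 99.9% and 99.8%, and Basp1-201 held 100% and 99.9%. For these genes the value of the gene is thus in effect that of a single coding sequence.

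Stmn2-201 held 95.1% of Stmn2 TPM in pup 1 and 93.3% in pup 3. Nearly all the rest, 4.70% and 6.57%, was assigned to Stmn2-203, an annotated non-coding transcript of 308 bases at chromosome 3, 8560266 to 8561575. The same entry took 0.519% and 0.739% of the Stmn2 counts, because division by its short length raises its share. It lies within the span of Stmn2-201. Its counts of 348 and 471 had deposited posterior standard deviations of 27.3 and 37.8, close to those of Stmn2-201 (28.4 and 37.8). These reads thus cannot be assigned to Stmn2-203 with certainty. Stmn2-201 alone reached 1292 TPM (pup 1) and 1087 TPM (pup 3).

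Stmn4-201, which encodes 189 residues, held 80.7% of Stmn4 TPM in pup 1 and 80.5% in pup 3. Stmn4-202 held 9.50% and 10.4%, and Stmn4-203 held 9.08% and 8.71%. Both minor transcripts were close to each other in level, between 50.02 and 59.6 TPM, and the shares differed little between the pups. Stmn4-203 contains an additional exon of 81 bases (chromosome 14, 66356269 to 66356349, plus strand), which keeps the reading frame and lengthens the coding sequence from 567 to 648 bases. Stmn4-202 contains an additional exon of 53 bases (chromosome 14, 66358679 to 66358731, plus strand). Of this exon 18 bases are coding before a stop codon, which leaves a coding sequence of 528 bases with a different end. The exon of 81 bases and the first 21 bases of the other, up to its stop codon, are shown because they hold the coding bases absent from Stmn4-201. Stmn4-202 in turn lacks the end of the Stmn4-201 coding sequence.
Stmn4-203: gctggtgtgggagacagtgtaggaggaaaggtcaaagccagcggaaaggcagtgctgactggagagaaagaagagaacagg
Stmn4-202: gagccgcctgctgcgcggtga
The annotated transcript with both exons, Stmn4-204, was listed at 0 TPM in both pups. The deposited standard deviations of the assignment show how far reads can be told apart here. For Stmn4-203 the expected count was 1704 in pup 1 with a posterior standard deviation of 103, and 1739 in pup 3 with 110. For Stmn4-204, with an expected count of 0 in both pups, the posterior standard deviation was 34.8 in pup 1 and 29.5 in pup 3. A low level of the form with both exons is therefore not excluded.

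**Figure D3:**
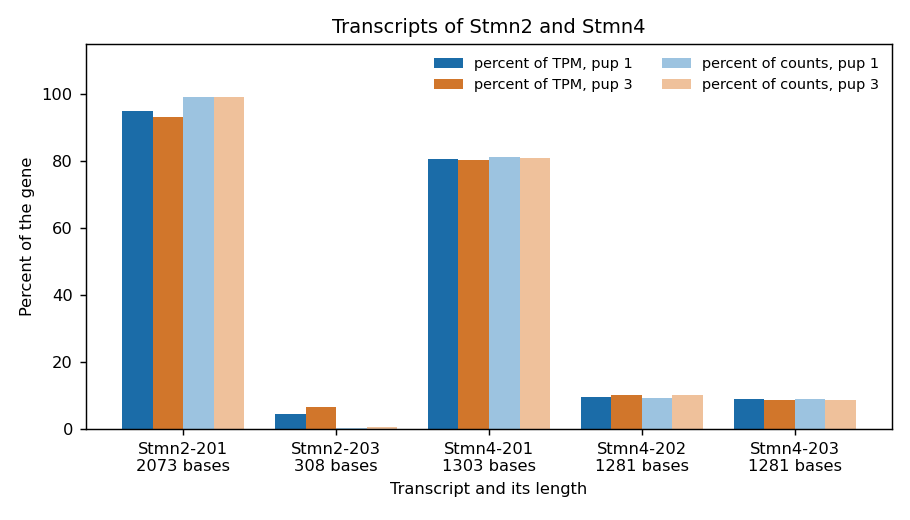
Percent of the gene's TPM (dark bars) and of its expected counts (light bars) held by the transcripts of Stmn2 and Stmn4 with over 4% of TPM, in each pup. For Stmn2-203, with 308 bases, the share of TPM is far above the share of counts, and for the Stmn4 transcripts both shares nearly coincide.

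Stmn1 and Marcksl1 had near copies elsewhere in the annotation, searched by sequence at 90% identity or more over at least 100 bases. Gm11223, a processed pseudogene on chromosome 4 (69925630 to 69926079, minus strand), was 99.8% identical to Stmn1 over 450 bases that include the whole coding sequence of 447 bases. Its level was 68.4 TPM in pup 1 and 81.2 TPM in pup 3, with 627 and 839 expected counts. The posterior standard deviations of its count, 32.2 and 39.5, were the same as those of Stmn1, so these reads cannot be assigned with certainty. They are few beside Stmn1: with them added, the mean of Stmn1 would be 6391 TPM in place of 6363. Marcksl1 had a similar stretch in Akr1c19 (91.0% identical over 1061 bases), a gene on chromosome 13 listed at 8.64 and 12.2 TPM, and in the pseudogene Gm9089 (0.09 and 0.48 TPM). Marcksl1-ps4, a pseudogene found by its name, was at 1.88 and 2.41 TPM. It lies within the span of Akr1c19 on the same strand. The posterior standard deviation of the Marcksl1 count was 0 in pup 1 and 0.03 in pup 3, on 73941 and 80970 expected counts, so almost none of its reads were divided with these copies. The other 6 genes had 0 near copies by this rule, and the posterior standard deviation of their gene counts was 0 in both pups.

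The pups were compared by the log2 ratio of TPM + 1, pup 3 over pup 1, minus the median over all genes with a mean TPM of at least 1. That median was -0.24, so an unchanged TPM appears as a positive difference. Of the 8 genes, 7 lay above the median and 1 below it. Of all 15463 genes with a mean TPM of at least 1, 7731 lay above it. Among protein-coding genes with a mean of at least 100 TPM, 1361 of 1678 did, so most genes at such levels lay above it too. Without this centring 2 of the 8 genes lay above 0 and 6 below, so the split of signs depends on the scaling. Stmn1 differed by 0.40 (1.32-fold) and Stmn3 by 0.37 (1.30-fold), the only genes of the 8 with a higher TPM in pup 3. Marcksl1 differed by 0.20, Stmn4 by 0.15, Marcks by 0.11, Basp1 by 0.10 and Stmn2 by 0.02. Gap43, at -0.10, was the one gene below the median.

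None of the 8 genes differed 1.5-fold between the pups (0 of 8), where 7.60% of all 11477 genes compared did, and 0 of 8 differed 2-fold, where 1.39% did. A count of 0 among 8 is near this background. The median difference of the 8 genes was 0.13. Among all 1678 protein-coding genes with a mean of at least 100 TPM, a set chosen after the values were seen, the median was 0.21 and 5.54% passed 1.5-fold. The pup ratio also varied with transcript length. Before centring, the median of protein-coding genes was -0.05 near the length of Stmn1 (1060 bases). It was -0.20 near that of Stmn2 (2073 bases) and -0.34 near that of Marcks (4048 bases). Beside protein-coding genes of similar transcript length, Stmn1 was 0.21 above their median, Stmn3 0.20, Marcks 0.22 and Marcksl1 0.10. Basp1 differed from such genes by 0.04, Stmn4 by 0.02, Stmn2 by -0.02 and Gap43 by -0.22. Stmn1 and Gap43 thus stood on opposite sides of genes of their own length.

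**Figure D4:**
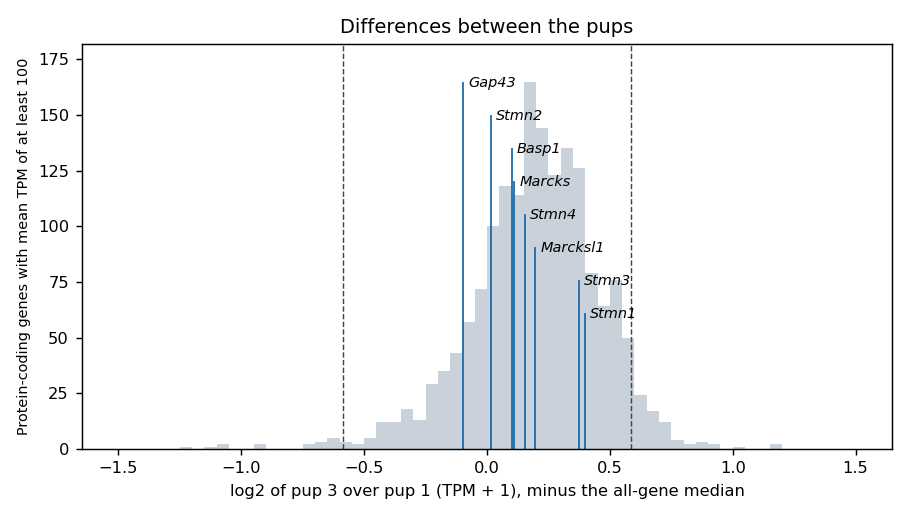
Histogram of the centred log2 ratio of pup 3 over pup 1 for 1678 protein-coding genes with a mean of at least 100 TPM, with a labelled line at each of the 8 genes (line heights carry no value) and dashed lines at 1.5-fold. The lines run from -0.10 (Gap43) to 0.40 (Stmn1), inside the dashed lines.

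Counting error was described on the share of counts, which is neither divided by length nor centred. On this scale the all-gene median log2 ratio was -0.10, so 0 is not the centre used above. The log2 ratio of the share of counts was 0.32 for Stmn1, with an exact 95% interval of 0.31 to 0.33, and -0.17 for Gap43, with an interval of -0.19 to -0.16. For Stmn2 the ratio was -0.08, with an interval of -0.10 to -0.07. For Marcks it was 0.04 with an interval of 0.01 to 0.06, nearly as wide to each side as the ratio itself. For Basp1 the ratio was 0.02 and the interval, -0.004 to 0.053, included 0. The intervals of Basp1 and Marcks lay above the all-gene median of -0.10, while that of Stmn2 included it. With 1 library per pup, the differences hold the pup, the dissection and the library together and cannot be told apart.

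The tissue label was checked with markers. Emx1, a transcription factor of the dorsal telencephalon, reached 23.8 TPM in pup 1 and 32.6 TPM in pup 3. Of 4 midbrain and hindbrain markers 0 reached 1 TPM, and Hoxb3 was listed at 0 in both pups. The pups differed in regional markers. The summed TPM of 3 thalamus markers (Tcf7l2, Lhx9 and Gbx2) was 273 in pup 1 and 102 in pup 3, and all 3 were lower in pup 3 by over 1.5-fold after centring. The sum of 4 telencephalon markers was 298 and 423, with 4 of 4 above the median, 2 of them past 1.5-fold. The sum of 5 neuron markers was 2468 and 2102, with 2 of 5 above the median, and that of 3 red blood cell markers was 1616 and 2302. The part of these shifts in the differences of the 8 genes was not tested.

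Other genes of the same processes were described as 5 lists, each by its levels and by its count past 1.5-fold between pups, beside the 7.60% of all genes. Of 20 further growth cone genes all 20 reached 1 TPM in both pups, with a median of 333 TPM, against 1354 TPM for the 8 genes. The highest were Cfl1, an actin-severing protein, at 3639 ± 217 TPM, Map1b, a microtubule-associated protein, at 1325 ± 559 TPM, and Dpysl2, the collapsin response mediator CRMP2, at 1171 ± 254 TPM. The lowest was Enah, an actin regulator, at 9.81 ± 4.81 TPM. Enah and Map1b, with differences of -0.70 and -0.65, were the 2 of 20 past 1.5-fold, and 11 of 20 lay above the median. Stmn1 was above every gene of this list, and Marcksl1 above all but Cfl1.

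The calmodulin and protein kinase C list holds genes of calmodulin, of proteins that bind calmodulin, and of protein kinase C. In it 11 of 11 reached 1 TPM in both pups, with a median of 96.6 TPM. The calmodulin gene Calm2 was at 2700 ± 5.19 TPM, above Gap43 in both pups, while Calm3 was at 335 ± 2.65 TPM. Among the kinases Prkca was the lowest, at 3.60 ± 0.72 TPM, and 0 of 11 genes passed 1.5-fold. Of 14 genes for kinases known to act on stathmins, or for regulators of such kinases, 14 reached 1 TPM, with a median of 81.5 TPM. Prkaca (157 ± 28.9 TPM) and Prkacb (150 ± 31.2 TPM), catalytic subunits of protein kinase A, were among the 3 highest. The mitotic kinase Aurkb, at 10.3 ± 1.62 TPM, was the lowest, and 1 of 14 passed 1.5-fold, in the direction of pup 1.

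Of 12 genes for adding or removing lipid anchors, 12 reached 1 TPM in both pups, with a median of 29.0 TPM. The thioesterase Lypla2 (165 ± 1.59 TPM), the myristoyl transferase Nmt2 (73.5 ± 13.6 TPM) and the palmitoyl transferase Zdhhc3 (65.4 ± 7.30 TPM) were the highest, and Zdhhc15 (1.47 ± 0.27 TPM) the lowest. In this list 0 of 12 passed 1.5-fold. Of 6 genes for RNA-binding proteins that act on mRNA stability, some of which are known to bind the Gap43 message, 6 reached 1 TPM, with a median of 47.4 TPM. The neuronal proteins Elavl4 (146 ± 26.6 TPM), Elavl2 (62.5 ± 10.7 TPM) and Elavl3 (51.3 ± 14.8 TPM) were the highest and Igf2bp1 (1.73 ± 0.43 TPM) the lowest. Here 0 of 6 passed 1.5-fold and 0 of 6 lay above the median. Their leading transcripts were 3978 to 8378 bases long, except that of Elavl4 (869 bases), and the pup ratio varied with transcript length. The part of length in the differences of this list was not tested. By mean TPM, all genes of the lipid anchor and stability lists were below Marcks, the lowest of the 8.

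**Figure D5:**
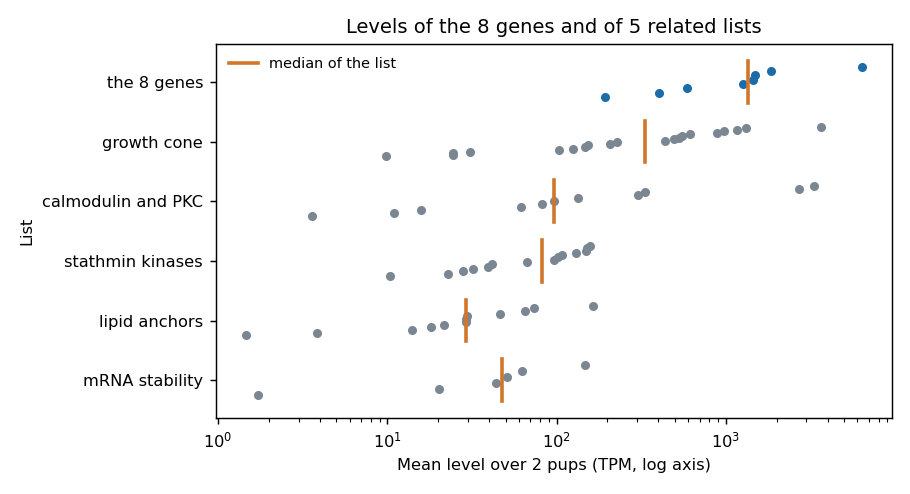
Mean TPM over 2 pups on a log axis for the 8 genes and for the genes of 5 related lists, 1 point per gene, with a bar at each list's median. The median of the 8 genes is 1354 TPM, and the medians of the lists run from 29.0 TPM (lipid anchors) to 333 TPM (growth cone).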

How the data were processed

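Libraries were primed with oligo-dT and tagmented (Nextera) from RNA extracted with the mirVana kit, with ERCC spike-ins, per the labels' protocols. The authors deposited expected counts (estimated counts, with reads of several origins divided), TPM and FPKM per gene and transcript on mm10 with annotation releases M21 and M4. The authors also deposited the percent of a gene's TPM held by each transcript, and posterior standard deviations and credibility bounds (held as signal values). The bounds surround the deposited posterior mean, not the TPM, and were not printed. The quantifier, its version and strand use were not given in the sources used here.

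M21 was the main release, and symbols, biotypes and coordinates came from GENCODE M21. Means and SDs were taken over 2 pups, and no p-value was computed. Pup differences were log2 ratios of TPM + 1, centred on the median of genes with a mean TPM of at least 1. A gene was counted past 1.5- or 2-fold if it had at least 5 TPM in 1 or both pups. Alternatives were M4, posterior means, FPKM, counts, other pseudocounts and minima, and CPM with TMM factors (edgeR 4.0.16) or size factors (DESeq2 1.42.0). Near copies were sought with BLAST 2.17.0. The centring and the count past 2-fold were checked on simulated counts, with large known changes put into genes with many reads. Other calculations were not checked in this way.

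The 8 genes and all lists were chosen with earlier results of these data known. Named were the 8 genes, copies found by name with at least 1 TPM, the nearest protein-coding gene above and below each, of each list the 3 highest, the lowest and any past 2-fold, and transcripts with at least 5% of TPM. The sequence search, the set of genes with at least 100 TPM, and the other genes named were chosen after the values were seen. Some genes of the lists are not reported here by name.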

Additional observations from a re-analysis of the deposited data

How the results depend on the processing

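The order of the 8 genes by level was the same with FPKM, posterior mean TPM and release M4, and it changed with counts not divided by length. With such counts Stmn2 exceeded Stmn3, at a log2 ratio of 0.62, and Gap43 lay below Stmn2, at -0.32. Levels moved by more than 1 SD for Marcksl1 (1809 TPM as posterior mean, 1943 TPM with M4) and for Stmn4 (619 TPM with M4). None of the 8 genes passed 1.5-fold (0 of 8) under any scaling, pseudocount, value or release tried, and the order of their differences did not change. The number of all genes past 1.5-fold was 872, and it was 1462 with a minimum of 1 TPM, 1777 with no minimum, 1667 without centring and 93 among protein-coding genes with at least 100 TPM. Past 2-fold it was 160, and under the same settings 353, 385, 289 and 7, and 99 with TMM factors. The signs of the 8 differences were 7 above and 1 below with TMM or DESeq2 factors, and 6 above and 2 below with unscaled CPM or posterior means. The all-gene median log2 ratio was -0.24 in TPM, -0.10 in CPM, 0.04 with TMM factors and 0.03 with DESeq2 size factors. Each pup's own value was within 1 SD of the mean, as it must be with 2 values, so leaving out a pup tests little. No paired analysis was possible because both libraries belong to 1 group. Depth did not limit the 8 levels, but 2 libraries give only a rough SD.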

Other observations

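Gap43, Basp1, Marcks and Marcksl1 were rich in alanine codons, a property that their selection did not use. Alanine codons made up 29.2% of the codons of Basp1, 28.8% of Marcks, 20.3% of Gap43 and 15.5% of Marcksl1, against a median of 6.91% over 11957 protein-coding leading transcripts. All 4 lay above 99.2% of those transcripts. The coding sequences of Marcks (75.6% G and C) and Basp1 (74.5%) were also among the richest in G and C, against a median of 53.3%, while Gap43 was at 55.7%. Lysine codons made up 15.4% of Stmn1, 13.2% of Gap43 and 12.4% of Basp1, against a median of 5.61%. Marcksl1, at 9.00%, and Marcks, at 7.44%, held the lowest shares of the 8. The cysteine-bearing stathmins ranged from 9.44% in Stmn3 to 12.3% in Stmn2.

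The polyadenylation signal AATAAA, searched on the transcript's own strand in its last 50 bases, was present in 7 of the 8 leading transcripts. It was present in 62.6% of 12242 protein-coding leading transcripts. AATAAA or ATTAAA was present in 7 of the 8 and in 76.8% of the 12242. Stmn4-201 had neither AATAAA nor ATTAAA in this window. A match is a description of these letters only.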
